A study of Mus musculus with 9 samples.

Results

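The genes described here encode the contents of cytotoxic granules: perforin (Prf1), the granzymes Gzma, Gzmb, Gzmc, Gzmk and Gzmm, the granule proteoglycan serglycin (Srgn), cathepsin W (Ctsw), the granule membrane protein NKG7 (Nkg7) and the granzyme B inhibitor Serpinb9. They were taken as a fixed list of names, and all 10 were found among the 18193 genes that had a probe set annotated with a single gene symbol. They were covered by 12 such probe sets, 2 each for Prf1 and Serpinb9 and 1 for each of the others. The levels came from Affymetrix arrays of 3 cell types sorted fresh, without further treatment, from BALB/c mice that were naive and 6 to 8 weeks old. These were interferon-producing killer dendritic cells (IKDC), natural killer cells (NK) and conventional dendritic cells (CDC), each with 1 array from lymph node (LN) and 2 from spleen. The labels give neither the surface markers used for sorting nor whether mice were pooled. The 2 spleen arrays of each cell type differed in sex-linked transcripts, as given below, so they were not repeats of 1 sample, and p-values measure the spread between these arrays.

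Killer lymphocytes store perforin and granzymes in secretory lysosomes and release them at the contact with a target cell. Perforin opens pores through which granzymes, a family of serine proteases, enter the target and trigger its death. Serglycin holds the positively charged granzymes in the granule core, and cytosolic serpins protect the killer cell from its own protease that leaks out. NK are known for these granules and conventional dendritic cells are not, and IKDC were named for combining killing with features of dendritic cells. The arrays measure RNA and not the protein held in granules.

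According to the RefSeq annotation of the mouse genome (GRCm38.p6), Gzmb and Gzmc are direct neighbours among the protein-coding genes of chromosome 14, in a cluster with Gzmd, Gzme, Gzmf, Gzmg and Gzmn. Gzma and Gzmk are likewise direct neighbours on chromosome 13. Prf1, Gzmm and Srgn lie on chromosome 10, Nkg7 on chromosome 7, Ctsw on chromosome 19 and Serpinb9 on chromosome 13. The 250 bases before the transcription start were taken from RefSeq for the members that had an entry, 9 of 10, with 11 starts between them. Shown here are those of Gzma, Gzmb and Nkg7, whose levels moved together across the arrays, and of Gzmc, which did not move with them. Capitals mark matches, on either strand, to 5 short motifs: AGGTGT for T-box factors, TGTGGT for RUNX factors, AGGAAG for ETS factors, TGACGTCA for the cyclic AMP response element (CRE) and TTCNNNGAA for STAT factors. No matches overlapped in these 4 sequences.
Gzma (chr13:113100982-113101231, minus strand): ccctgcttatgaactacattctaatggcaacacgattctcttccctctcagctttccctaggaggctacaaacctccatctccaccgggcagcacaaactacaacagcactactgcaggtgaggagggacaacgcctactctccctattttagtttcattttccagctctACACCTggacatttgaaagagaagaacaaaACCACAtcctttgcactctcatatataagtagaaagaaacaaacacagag
Gzmb (chr14:56262335-56262584, minus strand): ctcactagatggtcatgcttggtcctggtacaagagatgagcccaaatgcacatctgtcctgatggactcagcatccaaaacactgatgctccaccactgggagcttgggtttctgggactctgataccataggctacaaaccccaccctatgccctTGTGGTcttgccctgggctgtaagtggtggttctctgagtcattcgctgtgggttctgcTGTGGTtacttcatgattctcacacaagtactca
Nkg7 (chr7:43436888-43437137, plus strand): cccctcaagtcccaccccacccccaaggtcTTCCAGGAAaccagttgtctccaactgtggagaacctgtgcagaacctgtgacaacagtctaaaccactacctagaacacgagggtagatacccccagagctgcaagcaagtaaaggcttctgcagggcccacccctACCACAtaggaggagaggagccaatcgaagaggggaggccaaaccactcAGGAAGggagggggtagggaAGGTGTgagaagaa
Gzmc (chr14:56234658-56234907, minus strand): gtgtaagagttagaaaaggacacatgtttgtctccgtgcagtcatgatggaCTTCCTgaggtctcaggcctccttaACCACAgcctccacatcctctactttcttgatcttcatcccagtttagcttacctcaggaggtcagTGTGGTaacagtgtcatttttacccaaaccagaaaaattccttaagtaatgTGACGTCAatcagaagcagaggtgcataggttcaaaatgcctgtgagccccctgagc

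The RUNX letters were present before 7 of the 11 starts, against 14.0% of all 32851 starts in the RefSeq table, and the T-box letters before 4 of 11, against 11.8%. The ETS letters were present before 4 of 11 starts, against 29.5%, and the STAT letters before 2 of 11, against 7.0%. The CRE letters, found before 1.5% of all starts, were present before that of Gzmc alone among the members. In the cluster on chromosome 14, the 250 bases of Gzmc matched those of Gzmd, Gzme, Gzmf and Gzmg at 77.6% to 83.6% of positions in a global alignment, those of Gzmn at 58.0% and those of Gzmb at 56.0%. The CRE letters were also present before Gzmf and Gzmg. Such matches describe the letters and do not show that a factor binds there.

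All levels below are log2 values of quantile normalized intensity, and all differences are on that log2 scale. A level of 5.31 was the minimum mean for a gene to be tested and lies near background. The median deposited intensity of an array lay between 23.4 and 41.3, the lowest on spleen IKDC array 2. Spleen arrays 1 and 2 also differed in sex-linked transcripts. Spleen arrays numbered 1 read 6.02 to 6.36 in Xist and 8.84 to 9.40 in the Y-linked Eif2s3y, against at least 11.43 and at most 4.28 on the 6 other arrays. NK markers averaged 10.35 to 10.85 on the 3 IKDC arrays and 10.94 to 11.02 on the 3 NK arrays, against 6.07 to 6.78 on the 3 CDC arrays. Conventional DC markers averaged 6.91 to 7.59 on IKDC arrays and 5.83 to 6.79 on NK arrays, against 10.31 to 10.72 on CDC arrays. The LN IKDC array stood apart in plasmacytoid DC markers, of which 6 of 6 were highest there, with a mean of 10.12 against 5.76 and 6.38 on the spleen IKDC arrays. The NK arrays differed among themselves. Basophil and mast cell markers averaged 6.59 on the LN NK array and 5.12 and 7.83 on spleen NK arrays 1 and 2, macrophage markers 6.84, 5.23 and 8.05, proliferation markers 6.88, 8.89 and 6.84, and T cell markers 7.50, 6.02 and 6.11. Itgax, which encodes CD11c, read 8.19, 11.32 and 7.27 on the same arrays. The LN IKDC array read 10.88 in Itgax and the spleen IKDC arrays 11.03 and 11.24, so spleen NK array 1 lay at the IKDC level. On the CDC arrays Itgax read 11.40 in LN and 11.89 and 12.37 in spleen. In sorted bulk samples, fewer cells of a type and less RNA per cell cannot be told apart.

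Prf1, the pore-forming protein of the granule, was high on every IKDC and NK array. It read 10.15 on the LN IKDC array and 10.94 and 11.59 on the spleen IKDC arrays, 10.98 on the LN NK array and 11.46 and 12.19 on the spleen NK arrays, and 5.66 on the LN CDC array and 6.20 and 5.99 on the spleen CDC arrays. The lowest IKDC array lay 3.95 above the highest CDC array, and the LN array was the lowest of its cell type in each of the 3 cell types. These values come from 1 probe set. The other Prf1 probe set read between 4.67 and 5.64 on all 9 arrays, near background, and showed no such pattern.

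Gzma, a trypsin-like granzyme, was high across IKDC and NK, with nearly equal normalized levels. It read 13.09 on the LN IKDC array and 13.15 and 13.19 on the spleen IKDC arrays, 13.12 on the LN NK array and 13.17 and 13.42 on the spleen NK arrays, and 9.64 on the LN CDC array and 9.68 and 7.83 on the spleen CDC arrays. After quantile normalization the 6 IKDC and NK arrays spanned 0.33, while the 2 spleen CDC arrays differed by 1.85. Before that step, the deposited intensities of these 6 arrays ran from 5571.6 on spleen IKDC array 2 to 14320.1 on spleen NK array 2. Gzmb, which cleaves caspases and other death substrates after aspartate, was lower on each IKDC array than on any NK array. It read 9.91 on the LN IKDC array and 11.66 and 11.21 on the spleen IKDC arrays, 11.76 on the LN NK array and 12.37 and 12.66 on the spleen NK arrays, and 6.08 on the LN CDC array and 6.78 and 4.70 on the spleen CDC arrays. IKDC, NK and CDC arrays did not overlap in normalized Gzmb level, but the lowest NK array lay only 0.1 above the highest IKDC array. In deposited intensity IKDC and NK overlapped, at 3383.6 on spleen IKDC array 1 and 3199.5 on the LN NK array. How many of all genes separate the IKDC from the NK arrays by normalized level was not counted.

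Gzmk, a trypsin-like granzyme encoded next to Gzma, was higher on all IKDC and NK arrays than on the CDC arrays. It read 8.59 on the LN IKDC array and 8.32 and 8.66 on the spleen IKDC arrays, 7.96 on the LN NK array and 10.10 and 8.49 on the spleen NK arrays, and 5.25 on the LN CDC array and 4.71 and 3.76 on the spleen CDC arrays. All CDC arrays lay below the minimum level, so Gzmk passed that filter through the IKDC and NK arrays. Gzmm, which cleaves after methionine and leucine, was the tested granzyme whose 3 IKDC arrays all lay above its 3 NK arrays, by 0.12 at the closest. It read 7.89 on the LN IKDC array and 8.06 and 7.93 on the spleen IKDC arrays, 6.77 on the LN NK array and 7.77 and 6.75 on the spleen NK arrays, and 5.56 on the LN CDC array and 5.59 and 5.21 on the spleen CDC arrays. Both genes were highest, among NK arrays, on spleen array 1. That array was also the lowest of the 3 in basophil and mast cell, macrophage and T cell markers. By the values above, it was the highest in proliferation markers and Itgax. Proliferation markers were likewise higher on spleen array 1 than on array 2 in IKDC (9.97 and 7.66) and in CDC (9.25 and 7.74). The part of these markers in the Gzmk and Gzmm levels was not tested.

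**Figure D1:**
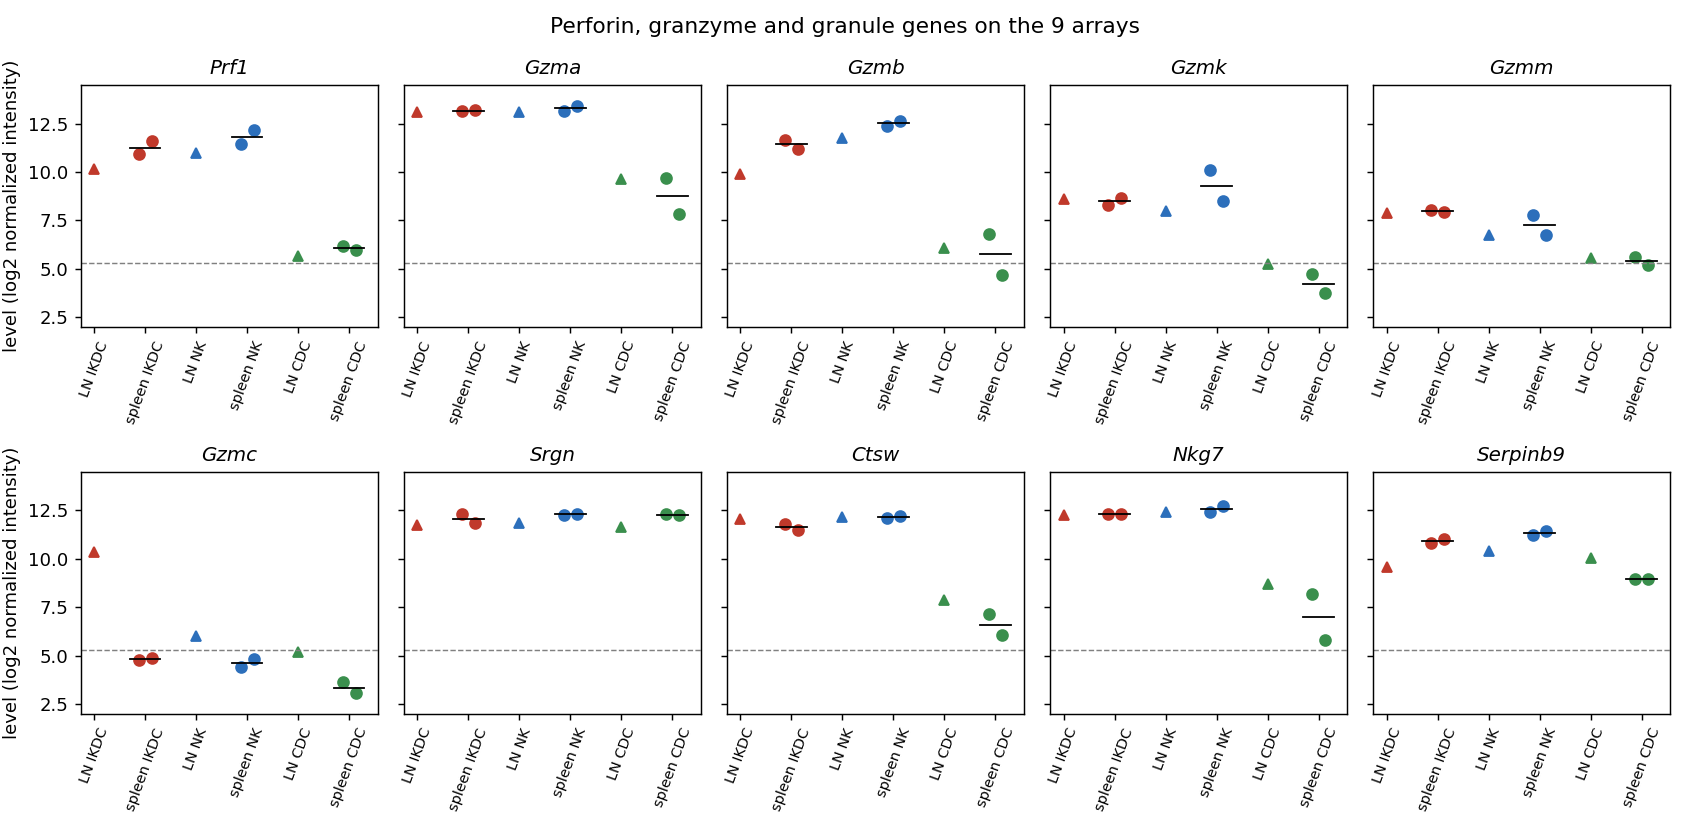
Each panel plots 1 gene, with the 9 arrays in 6 groups on the x axis and the level, as log2 normalized intensity, on the y axis. Triangles are single LN arrays, circles are spleen arrays, short lines are spleen means (n = 2), and the dashed line is the minimum mean level for testing, 5.31. IKDC and NK arrays lie above CDC arrays in Prf1, Gzma, Gzmb, Gzmk, Gzmm, Ctsw and Nkg7, Srgn is level across cell types, and Gzmc is high on the LN IKDC array alone.

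Gzmc, a granzyme of the Gzmb cluster known from activated mouse lymphocytes, was high on a single array. It read 10.36 on the LN IKDC array and 4.75 and 4.85 on the spleen IKDC arrays, 6.00 on the LN NK array and 4.43 and 4.82 on the spleen NK arrays, and 5.17 on the LN CDC array and 3.62 and 3.05 on the spleen CDC arrays. Its deposited intensity was 1208 on the LN IKDC array, against 59.4 on the LN NK array, the next highest of the 9. The level on the LN IKDC array lay 4.36 above that of the next array, the second largest such gap among the 18193 genes.

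With a mean of 5.23, Gzmc fell just below the minimum level and was not in the tests below, while Gzmm, the tested member nearest to that minimum, had a mean of 6.84. In the limma fit without that minimum, over all 18193 genes, Gzmc was higher in LN IKDC than in LN CDC by 5.19 ± 0.57 (SE, adjusted p = 0.0261). With LN CDC below the minimum level, that is at least 33.2-fold. In the same fit it differed by 4.36 ± 0.57 from LN NK (adjusted p = 0.209) and by 5.56 ± 0.49 from spleen IKDC (adjusted p = 0.0785), neither of which passed. The 5 other cluster genes Gzmd, Gzme, Gzmf, Gzmg and Gzmn read between 2.76 and 3.58 on the LN IKDC array, although 4 of them share most of the promoter letters with Gzmc. The array-to-array spread of Gzmc in that fit came from the spleen arrays alone, where Gzmc read 3.05 to 4.85, below the minimum level. Its SE and adjusted p-values thus do not measure the spread of Gzmc at a high level. The high value rests on 1 array and 1 probe set. That array also held the highest levels of all 6 plasmacytoid DC markers, among them Siglech at 10.78, against 6.51 or below on every other array, and Ccr9 at 11.78. Of the T cell markers, 1 of 11 was highest on the LN IKDC array (Cd8b1, 8.78), and of the B cell markers 2 of 7, among them Fcrla (9.93). The part of cells with any of these markers in the Gzmc level was not tested.

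**Figure D2:**
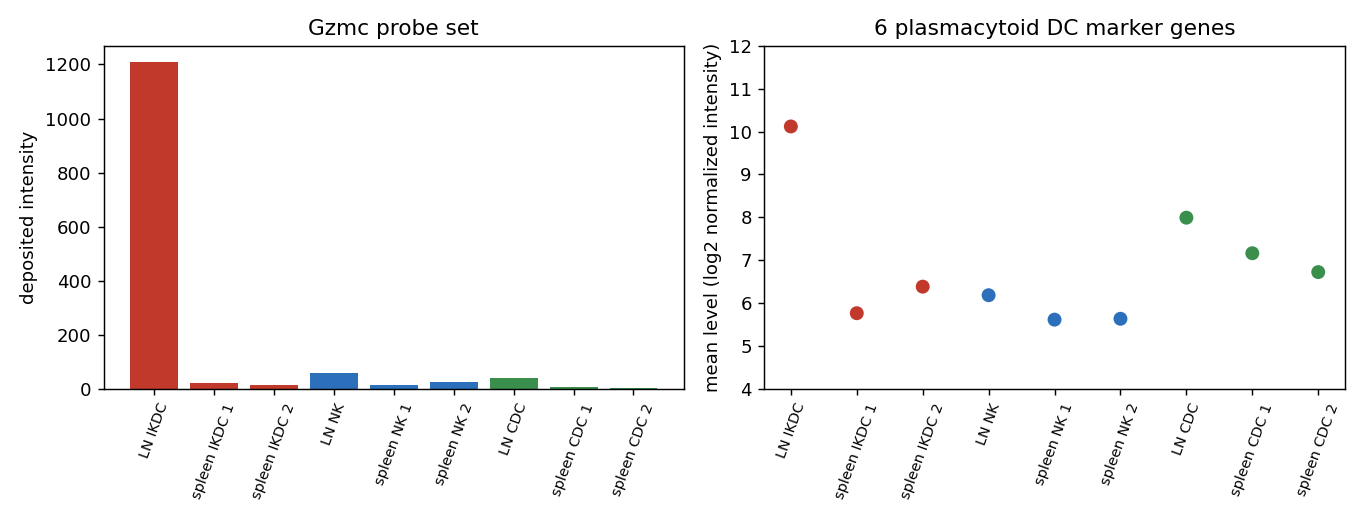
The left panel plots the deposited intensity of the Gzmc probe set as bars, and the right panel the mean level of 6 plasmacytoid DC markers, as log2 normalized intensity, as points, for the 9 arrays (red IKDC, blue NK, green CDC). Both are highest on the LN IKDC array, at 1208 and 10.12.

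Srgn, the proteoglycan core of granules in many blood cells, was high on all 9 arrays, with little difference between cell types. It read 11.72 on the LN IKDC array and 12.29 and 11.83 on the spleen IKDC arrays, 11.84 on the LN NK array and 12.28 and 12.32 on the spleen NK arrays, and 11.64 on the LN CDC array and 12.30 and 12.27 on the spleen CDC arrays. The 9 arrays spanned 0.68 after quantile normalization. Their deposited intensities ran from 2737.2 on spleen IKDC array 2 to 5896 on spleen CDC array 1. Ctsw, a cysteine protease of cytotoxic lymphocytes, read 12.06 on the LN IKDC array and 11.81 and 11.50 on the spleen IKDC arrays, 12.16 on the LN NK array and 12.12 and 12.22 on the spleen NK arrays, and 7.86 on the LN CDC array and 7.14 and 6.05 on the spleen CDC arrays. Nkg7, which takes part in granule release, read 12.26 on the LN IKDC array and 12.32 and 12.30 on the spleen IKDC arrays, 12.41 on the LN NK array and 12.43 and 12.73 on the spleen NK arrays, and 8.67 on the LN CDC array and 8.20 and 5.80 on the spleen CDC arrays. In both genes each IKDC array lay far above the CDC arrays. By normalized level, each also lay below each NK array, by only 0.06 at the closest in Ctsw and 0.09 in Nkg7. In deposited intensity Nkg7 overlapped, at 5472.8 on spleen IKDC array 1 and 4935.1 on the LN NK array. As for Gzmb, the number of all genes that separate by normalized level was not counted.

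The granule genes also differed between the spleen CDC arrays. Spleen CDC array 1 exceeded spleen CDC array 2 by 2.40 in Nkg7, 2.08 in Gzmb, 1.85 in Gzma, 1.10 in Ctsw and 0.95 in Gzmk, while Prf1 differed by 0.21 and Serpinb9 by 0.01. NK markers were higher on array 1 in 7 of 8 genes. Their mean was 6.73 on the LN CDC array and 6.78 and 6.07 on the spleen CDC arrays 1 and 2. Ncr1, which encodes the NK receptor NKp46, read 6.22 on the LN CDC array and 5.94 and 5.06 on the spleen arrays. The part of NK in the CDC values was not tested.

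Serpinb9, the intracellular inhibitor of granzyme B, was present in all 3 cell types and had its own order. It read 9.60 on the LN IKDC array and 10.79 and 11.01 on the spleen IKDC arrays, 10.41 on the LN NK array and 11.24 and 11.46 on the spleen NK arrays, and 10.04 on the LN CDC array and 8.97 and 8.96 on the spleen CDC arrays. In spleen, the IKDC and NK arrays lay above the CDC arrays, while in lymph node the IKDC array lay below the CDC array. In the other Serpinb9 probe set, the spleen IKDC and NK arrays also lay above the spleen CDC arrays, and the LN IKDC array below the LN CDC array. That probe set read 7.56 on the LN IKDC array and 8.53 and 9.29 on the spleen IKDC arrays, 8.85 on the LN NK array and 9.31 and 9.74 on the spleen NK arrays, and 8.33 on the LN CDC array and 6.54 and 6.90 on the spleen CDC arrays.

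Spleen IKDC were set against spleen CDC to ask which granule genes separate IKDC from conventional dendritic cells. Of the 9 members tested, Prf1, Gzma, Gzmb, Gzmk, Gzmm, Ctsw, Nkg7 and Serpinb9 were higher in IKDC and Srgn did not pass. Gzmb was 51.9-fold higher, with means of 11.43 ± 0.32 for IKDC and 5.74 ± 1.47 for CDC (SD over 2 arrays) and a difference of 5.70 ± 0.64 (SE, limma adjusted p = 0.00329). Prf1 was 36.0-fold higher (5.17 ± 0.35, adjusted p = 0.00129), Nkg7 39.8-fold, Ctsw 33.3-fold and Gzma 21.2-fold. Gzmk was at least 9.10-fold higher, Gzmm 6.02-fold and Serpinb9 3.82-fold. Srgn averaged 12.06 ± 0.33 for IKDC and 12.29 ± 0.02 for CDC, a difference of -0.23 with a 95% interval from -0.74 to 0.29 (limma adjusted p = 0.604).

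Of all 10916 genes tested in that comparison, 4.75% were called higher in IKDC and 10.3% in either direction. The median difference was 4.41 over the 9 members and 0.04 over all genes tested. Gzmm lost its call without spleen CDC array 1 (adjusted p = 0.0577) or array 2 (adjusted p = 0.100), and Gzmk without spleen CDC array 2 (adjusted p = 0.0672). Between arrays of the same number, and so of the same sex-linked pattern, the 8 genes were higher in IKDC by 1.82 to 4.88 for arrays 1 and by 2.05 to 6.52 for arrays 2. Without CDC arrays 1 and 2 in turn, 465 and 360 of all genes were called, against 1129 with both, and 1883 with the spleen array number as a block, which kept the same 8 members.

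Spleen NK were set against spleen CDC as the measure of a cytotoxic lymphocyte. The same 8 genes were higher and Srgn again did not pass. Gzmb was 109.8-fold higher, with means of 12.52 ± 0.21 for NK and 5.74 ± 1.47 for CDC (SD over 2 arrays) and a difference of 6.78 ± 0.64 (SE, limma adjusted p = 0.0014). The Gzmb difference was 5.59 between spleen arrays 1 and 7.97 between spleen arrays 2, with CDC array 2 below the minimum level. Prf1 was 53.0-fold higher, Nkg7 48.0-fold, Ctsw 47.6-fold, Gzma 23.2-fold and Gzmk at least 15.8-fold. Serpinb9 was 5.24-fold higher and Gzmm 3.63-fold. Of all genes tested, 6.54% were called higher in NK and 13.5% in either direction. The median was 5.06 over the members and 0.06 over all genes. Gzmm lost its call without spleen CDC array 1 (adjusted p = 0.1), CDC array 2 (adjusted p = 0.189) or NK array 1 (adjusted p = 0.139), and without the minimum level (adjusted p = 0.0512). Without spleen CDC array 1 or 2, 729 or 515 of all genes were called, and without spleen NK array 1 or 2, 677 or 669, against 1475 with all arrays. With the spleen array number as a block, 2318 genes were called, and the same 8 members. Between same-numbered arrays the 8 genes were higher in NK by 2.18 to 5.59 for arrays 1 and by 1.53 to 7.97 for arrays 2. Both comparisons share the 2 spleen CDC arrays.

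Spleen IKDC were set against spleen NK to ask whether the granule contents of these similar cells differ. No member passed, and 8 of 9 were on the lower side in IKDC. Gzmb averaged 11.43 ± 0.32 for IKDC and 12.52 ± 0.21 for NK (SD over 2 arrays), a difference of -1.08 with a 95% interval from -2.61 to 0.45 (limma adjusted p = 0.865). Serpinb9 differed by -0.46 (interval -0.99 to 0.08), Prf1 by -0.56 (-1.41 to 0.29) and Ctsw by -0.51 (-1.43 to 0.40). Gzma differed by -0.13 (-1.45 to 1.19), Nkg7 by -0.27 (-1.96 to 1.42) and Srgn by -0.24 (-0.76 to 0.27). Gzmk differed by -0.80 (-2.21 to 0.61), and by 0.01 without spleen NK array 1. Gzmm differed by 0.73 (-0.24 to 1.70), on the higher side in IKDC.

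Gzmb and Gzmm thus lay on opposite sides, and did so in each organ. Gzmb was lower on the IKDC array by 0.71 between spleen arrays 1, by 1.45 between spleen arrays 2 and by 1.85 between the LN arrays, and Gzmm higher by 0.28, 1.18 and 1.12. The 2 genes' differences were not tested against each other. Over all genes tested, 0% passed in this comparison by limma, 598 genes and 0 members had an unadjusted p under 0.05, and the median difference was -0.46 over the members and -0.01 over all genes. In simulated data of the same size, this comparison recovered 0% of 2-fold and 53% of 4-fold changes, so a missing call does not show equal levels.

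**Figure D3:**
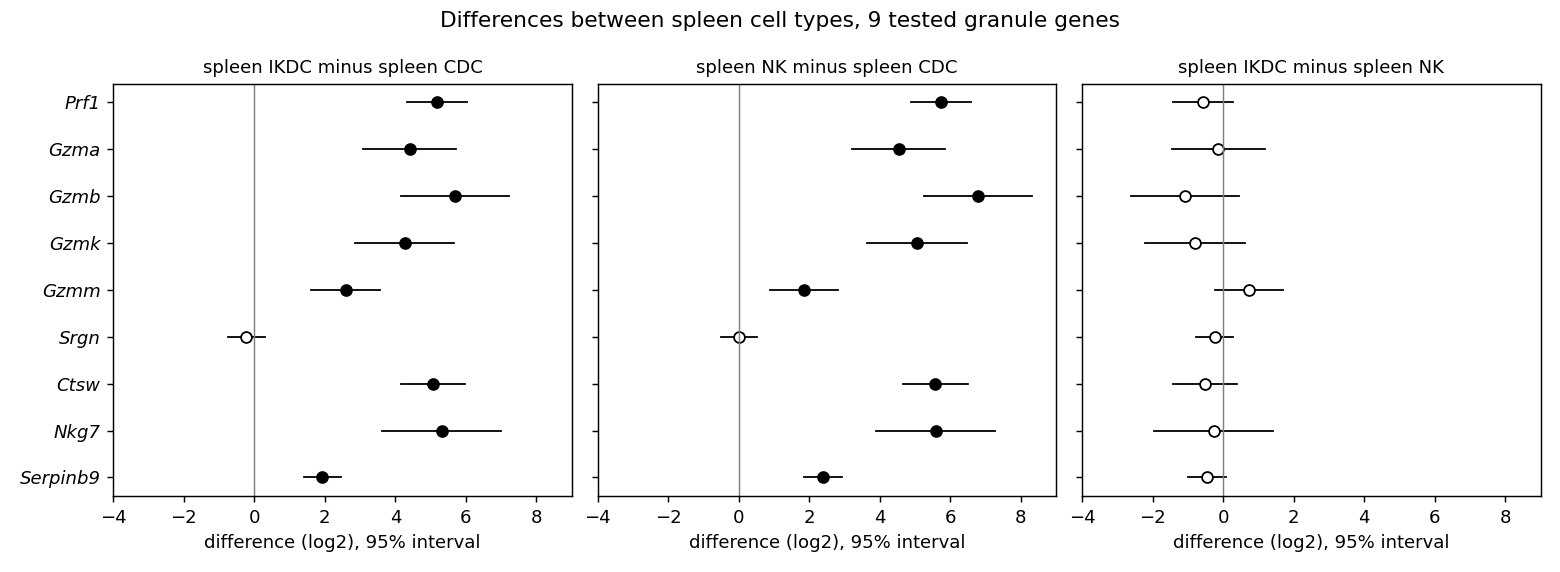
Each panel plots the difference between 2 spleen cell types in 9 granule genes, on the log2 scale, as a point with its 95% interval from limma (n = 2 arrays each). Filled points passed an adjusted p of 0.05. All genes but Srgn pass against CDC in both IKDC and NK, and all 9 intervals between IKDC and NK include 0.

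In lymph node, where each cell type had 1 array, the spread was borrowed from the spleen arrays. LN IKDC exceeded LN CDC by 4.50 ± 0.50 (SE) in Prf1 (limma adjusted p = 0.0153) and by 4.20 ± 0.54 in Ctsw (adjusted p = 0.0188), and 2.09% of all genes were called higher there. Gzmb, Nkg7, Gzma, Gzmk and Gzmm differed by 3.83, 3.59, 3.45, 3.34 and 2.33 and did not pass (adjusted p = 0.0723 to 0.124). LN NK exceeded LN CDC in Prf1 by 5.32 ± 0.50, in Gzmb by 5.69 ± 0.90 and in Ctsw by 4.30 ± 0.54 (limma adjusted p = 0.00666, 0.0195 and 0.0105), beside 2.93% of all genes called higher. Gzma, Nkg7 and Gzmk differed by 3.49, 3.74 and 2.71 and did not pass. With the spleen array number as a block, Gzmb, Nkg7, Gzma, Gzmk and Gzmm were called in the first comparison as well (limma adjusted p = 0.0242 to 0.0472) and Gzma, Nkg7 and Gzmk in the second (adjusted p = 0.0201 to 0.0405), and 1041 and 1324 of all genes, against 434 and 672 without it. Without 1 spleen array, 123 to 732 genes were called in the first and 328 to 1078 in the second, with fewer calls without any CDC or NK array and more without either IKDC array. Without spleen CDC array 1, or without array 2, Gzma and Nkg7 were also called in both comparisons and Gzmb in the first, which came to 5 members each. With the mean over its probe sets, Prf1 lost its call in the first (2.19, adjusted p = 0.0715). Without spleen NK array 2, Ctsw lost its call in the first (adjusted p = 0.051) and Gzmb in the second (adjusted p = 0.0505).

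Between LN IKDC and LN NK, no member passed, with Gzmb at -1.85 ± 0.90, Gzmm at 1.12 ± 0.57 and Serpinb9 at -0.81 ± 0.31 (SE), and 0.055% of all genes were called. Prf1 and Gzmb were lower on the LN IKDC array than on any other IKDC or NK array. The NK marker mean was 10.66 on the LN IKDC array, within the 10.35 to 10.85 of the spleen IKDC arrays. The plasmacytoid DC marker mean of 10.12 on that array stands beside these low values, and its part in them was not tested.

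Lymph node and spleen arrays of the same cell type were compared in the granule genes. The LN arrays shared the Xist and Eif2s3y pattern of spleen arrays 2, so organ and this pattern are partly confounded. Proliferation markers averaged 6.74, 6.88 and 8.02 on the LN IKDC, NK and CDC arrays. In the same order, they averaged 9.97, 8.89 and 9.25 on spleen arrays 1 and 7.66, 6.84 and 7.74 on spleen arrays 2. The part of either in the organ differences was not tested. No member passed in IKDC, NK or CDC by limma, and the shares of all genes called were 0%, 0% and 0.0275%. Serpinb9 had the smallest unadjusted p of the members in each cell type. Its LN minus spleen difference was -1.29 ± 0.27 (SE) in IKDC, -0.94 ± 0.27 in NK and 1.08 ± 0.27 in CDC (limma adjusted p = 0.256, 0.768 and 0.223). Prf1 differed by -1.11 ± 0.43 in IKDC, -0.84 ± 0.43 in NK and -0.44 ± 0.43 in CDC. At an unadjusted p under 0.05, 2 members (Prf1 and Serpinb9) and 744 genes differed in IKDC, 1 member and 628 genes in NK and 3 members and 1387 genes in CDC.

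Whether the difference between cell types itself changed with the organ was tested as an interaction, and no gene passed in any of the 3 by limma. Serpinb9 was the member with the smallest p, where the IKDC to CDC difference was -0.44 in lymph node and 1.93 in spleen, an interaction of -2.37 ± 0.39 (SE, adjusted p = 0.385, unadjusted p = 0.000642). Its NK to CDC difference was 0.37 in lymph node and 2.39 in spleen, an interaction of -2.02 ± 0.39 (limma adjusted p = 0.613). The second Serpinb9 probe set gave interactions of -2.96 and -2.28. The 3 interactions share the same LN arrays, and 615, 583 and 303 genes had an unadjusted p under 0.05 for IKDC to CDC, NK to CDC and IKDC to NK.

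The other genes of granule biology were followed in 5 lists. Among the machinery of granule transport and release, 2 of 19 tested genes passed on the higher side in spleen IKDC against CDC and 3 on the lower side, and in spleen NK 4 were higher and 4 lower. Of all genes tested, 4.75% were called higher and 5.6% lower in IKDC, and 6.54% higher and 6.97% lower in NK. The median difference was -0.12 in IKDC and -0.09 in NK, against 0.04 and 0.06 over all genes. The same shares and medians over all genes stand beside each list that follows. Sytl2 and Sytl1, Rab27 effectors that tether granules, led the higher genes. Sytl2 was at least 14.6-fold higher in IKDC (limma adjusted p = 0.00161) and at least 26.1-fold in NK. Sytl1 was at least 2.48-fold higher in IKDC (adjusted p = 0.00657) and at least 2.87-fold in NK. Sytl1 read 3.22 to 3.54 on the CDC arrays, all below the minimum level, and passed that filter through the IKDC and NK arrays. Lyst, which controls lysosome size and is mutated in Chediak-Higashi syndrome, was lower in IKDC (-2.18 ± 0.35, adjusted p = 0.0113) and in NK (-2.68 ± 0.35, adjusted p = 0.00426). Stx11, a syntaxin needed for granule fusion, was higher in NK (1.36 ± 0.32, adjusted p = 0.0399) and differed by 0.82 ± 0.32 in IKDC (adjusted p = 0.192). Lamp2, a lysosome membrane protein, was lower in NK (-1.01 ± 0.25, adjusted p = 0.0426), and Lamp1 passed in neither.

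Among genes for processing and sorting granule proteins, 4 of 15 were called higher and 2 lower in spleen IKDC against CDC, and 7 were higher and 3 lower in NK. The medians were 0.61 in IKDC and 0.62 in NK. Cst7, which encodes cystatin F, an inhibitor of the cathepsins that activate granzymes, was higher in IKDC (4.20 ± 0.36, limma adjusted p = 0.00168) and in NK (4.49 ± 0.36). Ctsd, a lysosomal aspartyl protease, was higher by 3.11 ± 0.26 in IKDC and 3.31 ± 0.26 in NK. Cst3, which encodes cystatin C, was lower, with differences of -2.63 ± 0.53 in IKDC and -3.02 ± 0.53 in NK. Ctsh, a lysosomal aminopeptidase, was lower in spleen IKDC (-4.29 ± 0.36, adjusted p = 0.00162) and in spleen NK (-6.04 ± 0.36, adjusted p = 0.00058). Ctsh read 11.66 on the LN IKDC array and 7.95 and 8.18 on the spleen IKDC arrays, so that the LN IKDC array, with its plasmacytoid DC markers, lay near the CDC arrays at 11.79 to 12.48. B4galt7, an enzyme that builds the linker of proteoglycan sugar chains, and Gnptab, which makes the mannose 6-phosphate tag that sorts granzymes, passed in NK (1.73 ± 0.31 and 1.19 ± 0.23) and not in IKDC (0.81 ± 0.31 and 0.61 ± 0.23). The differences of these 2 genes between IKDC and NK did not pass.

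Among serpins, 1 of 4 tested genes was called higher in spleen IKDC and 3 in spleen NK. The medians were 1.03 in IKDC and 1.58 in NK. Serpinb6b passed in both (1.20 ± 0.27 in IKDC, limma adjusted p = 0.0378, and 1.61 ± 0.27 in NK, adjusted p = 0.0107). Serpinb9b, a relative of Serpinb9, was higher in NK (3.90 ± 0.58, adjusted p = 0.00703) and did not pass in IKDC (2.35 ± 0.58, adjusted p = 0.0529). Serpinb6a passed in NK alone (1.56 ± 0.30), with 0.86 ± 0.30 in IKDC, and Serpinb1a in neither. Of the 5 other granzymes of the Gzmb cluster, none reached the minimum level for testing, and their levels lay between 2.73 and 4.94 on the 9 arrays.

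Among transcription factors known to regulate granule genes, 4 of 12 were called higher in spleen IKDC and 6 in spleen NK, with 0 lower in either. The medians were 1.12 in IKDC and 1.85 in NK. Eomes and Tbx21, the T-box factors of NK, were higher by 5.20 ± 0.53 and 3.87 ± 0.34 in IKDC (limma adjusted p = 0.00278 and 0.00178) and by 5.38 ± 0.53 and 3.94 ± 0.34 in NK. Ets1, an ETS factor of lymphocytes, was higher by 4.99 ± 0.34 in IKDC and 4.84 ± 0.34 in NK. Prdm1, which encodes Blimp-1, passed in NK (at least 13.4-fold) and not in IKDC (at least 6.33-fold, adjusted p = 0.0947), with CDC below the minimum level. Zeb2, a factor of NK maturation, passed in NK (2.28 ± 0.27) and not in IKDC (1.00 ± 0.27, adjusted p = 0.073). Between IKDC and NK, Zeb2 differed by -1.27 ± 0.27 (adjusted p = 0.857) and Id2 by -0.57 ± 0.36.

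**Figure D4:**
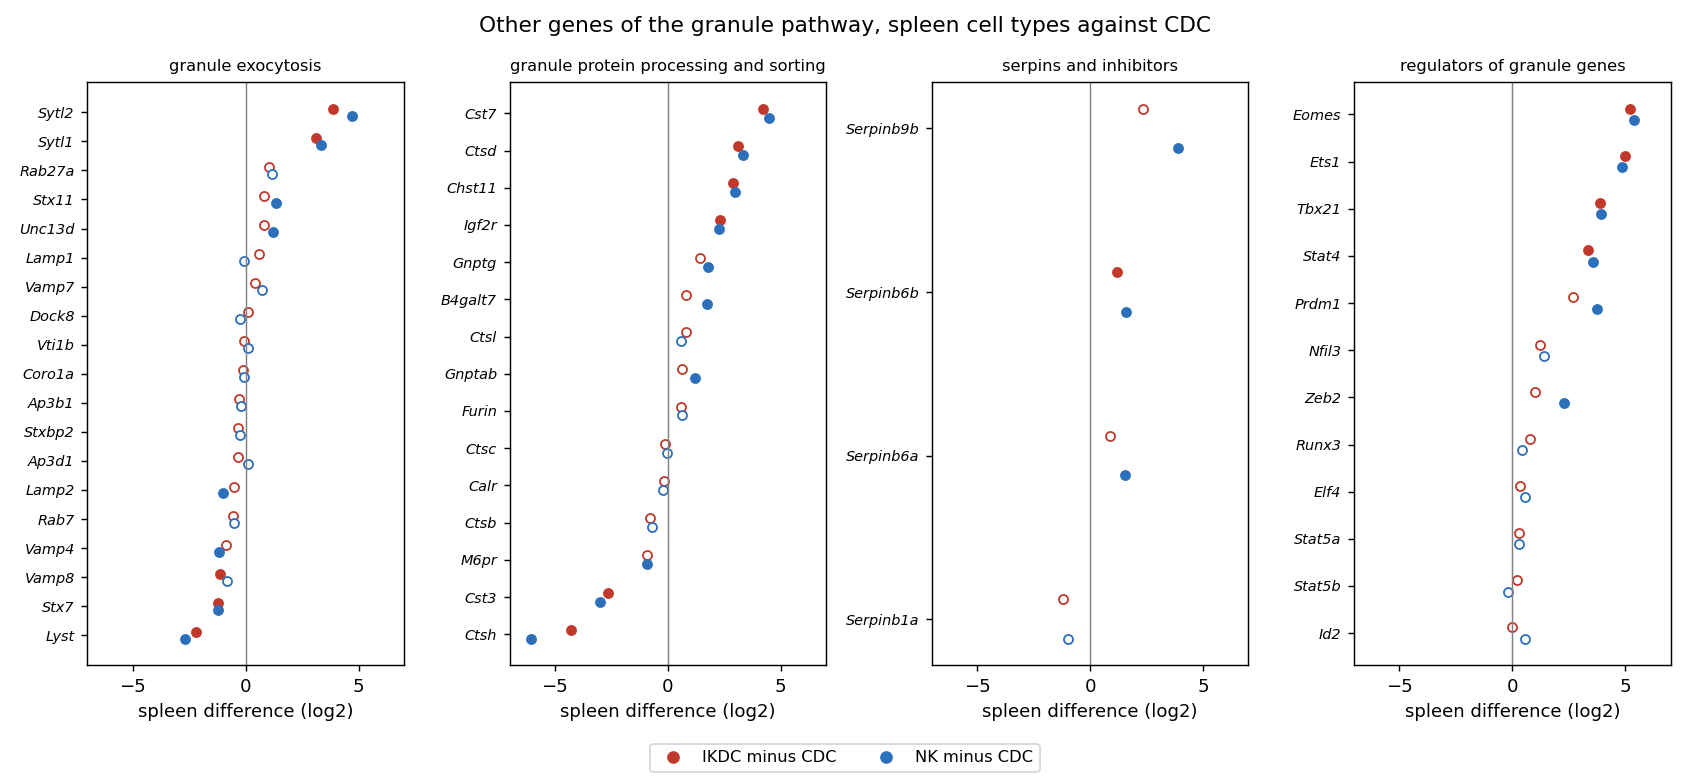
Each panel plots the genes of 1 list, with the difference from spleen CDC on the log2 scale on the x axis, red for IKDC and blue for NK (n = 2 spleen arrays each). Filled points passed an adjusted p of 0.05. Cst7, Sytl2, Eomes and Ets1 lie far to the right in both cell types and Ctsh far to the left, while most release genes lie near 0.

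The genes whose levels followed each member most closely were ranked by Pearson's r over the 9 arrays. The arrays fall into a CDC and a non-CDC cluster, so r mostly measures that split and is given as a description. Prf1 was followed most closely by Chsy1 (0.998), Tspan5 (0.996) and Fasl (0.994). Gzmb was followed by Ifng (0.995), Arap3 (0.989) and Tecpr1 (0.988), and Gzma by Gimap4 (0.996), Jakmip1 (0.995) and Eomes (0.992). Nkg7 was followed by Jakmip1 (0.999), Gimap4 (0.996) and Ms4a4b (0.995), and Ctsw by Ppp3cc (0.996), Cd96 (0.995) and Spry2 (0.994). The values were lower for Gzmk (Abtb2, 0.988, Wscd2, 0.979, and Arid5a, 0.978), Gzmm (Crtam, 0.977, Cd163l1, 0.96, and Mcf2l, 0.959), Serpinb9 (Nab2, 0.976, Haus4, 0.958, and Vgll4, 0.953) and Srgn (Pmpca, 0.963, Slc45a1, 0.947, and Ccnl1, 0.936).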

How the data were processed

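Total RNA extracted with TRIzol and RNeasy columns was labelled with biotin from 6 µg per sample and read on 1-colour Affymetrix arrays, per the labels' protocols. Per probe set, the authors deposited a linear signal intensity, scaled by array: the mean between the 2nd and 98th percentiles was 150.001 on all arrays. No source used here names the software. The depth of an array is not a count, and the number of arrays limits precision.

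From the 45101 probe sets, 64 controls were removed, and 932 with several symbols and 9160 with none were not used. An offset of 6.49, the 20th percentile, was added before log2, and arrays were quantile normalized. Each of 18193 genes took its probe set with the highest mean, and the 10916 whose mean reached the 40th percentile (5.31) were tested. limma 3.58.1 in R 4.3.3 fitted 6 group means to the 9 arrays (lmFit, eBayes with trend, 3 residual and 3.44 prior degrees of freedom). Two-sided p-values were adjusted by Benjamini and Hochberg within a comparison, with a threshold of 0.05. LN arrays were assumed to vary like spleen arrays. Folds against a group mean below 5.31 were taken against that level and written as at least that much. A group's error is the SD, and a difference's the SE.

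The script was tested on simulated data of the same size with known differences. For spleen IKDC against spleen NK, it recovered 0% of 2-fold, 53% of 4-fold and 85.5% of 16-fold changes. The members and lists were chosen with earlier results of these data known. Named genes were all members, up to 4 genes per list that passed in any cell type comparison, by the largest spleen difference, up to 2 further genes by the spleen IKDC to NK difference, and the 3 tested genes with the highest r with each tested member. Spleen arrays of the same number were not paired, since no label says that a number marks a shared animal or day. Alternatives were other normalizations, offsets, filters, probe set summaries, spread settings and models, a fit to the spleen alone, and fits without each spleen array in turn. Promoter sequences are from RefSeq (GRCm38.p6), read with Python 3.11.15 and aligned with Biopython 1.88.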

Additional observations from a re-analysis of the deposited data

How the results depend on the processing

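The 8 calls of spleen IKDC over CDC and of spleen NK over CDC rest on 2 arrays a group, and the lymph node values on 1 array each. In spleen, the 8 called members kept their direction in every alternative run, but Gzmm lost its call in NK without the minimum level, Serpinb9 lost its call in IKDC in the additive model (1.14, adjusted p = 0.110), and the second Prf1 probe set, near background, showed 0.02 in IKDC and 0.05 in NK. That probe set gave -0.13 for LN IKDC against LN CDC, the reverse of the 4.50 reported. Other normalizations and the spread without a trend kept the number of members called in each comparison.

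The offset of 50 called 4 members in LN IKDC against LN CDC, 5 in LN NK against LN CDC, and 1 (Gzmc) each in LN IKDC against LN NK and in LN against spleen IKDC, where the mean over probe sets also called 1 (Gzmc). The mean over probe sets also called Gzmc in spleen IKDC against spleen CDC (9 members) and in LN IKDC against LN CDC (with Ctsw). Gzmc has 1 probe set and a mean of 5.23, so it entered these runs through the LN IKDC array. Its spleen IKDC arrays (4.75 and 4.85) and spleen CDC arrays (3.62 and 3.05) all lay below the minimum level of 5.31. In the fit without that minimum, this spleen difference was 1.47 ± 0.4 (SE) and did not pass (limma adjusted p = 0.11). The additive model of cell type and organ called 7 members in LN IKDC and 8 in LN NK against LN CDC. Over all genes it called 1897 for IKDC and 2404 for NK against CDC, and 88 for organ.

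The replicate block rests on numbers that the labels tie to no animal or day, although arrays of the same number shared their Xist and Eif2s3y pattern in all 3 cell types. Deviations of same-numbered spleen arrays from their group means correlated across genes at 0.485 (IKDC and NK), 0.529 (IKDC and CDC) and 0.412 (NK and CDC), with 2 numbers only. With the replicate block, 1883 genes were called for spleen IKDC against CDC, 2318 for spleen NK against CDC, 1041 for LN IKDC and 1324 for LN NK against LN CDC, and 45 for LN IKDC against LN NK. Members called were 7 for LN IKDC and 6 for LN NK against LN CDC, and no member's call was lost. No block could be fitted for the organ comparisons.

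Counts of all genes were small and unstable elsewhere. Without the minimum level, 260 genes were called for LN IKDC against LN CDC. For LN IKDC against LN NK, where 6 were reported, the count was 0 with values as deposited, the 75th percentile shift, the offset of 1, no minimum level, each probe set alone, no trend and the additive model, and 28 with the offset of 50. For LN against spleen CDC, where 3 were reported, it was 5 with the 75th percentile shift, 13 with the offset of 1, 32 with the offset of 50, 10 with the 60th percentile filter, 8 with the mean over probe sets, 1 with each probe set alone, and 0 without the minimum level or the trend. For LN against spleen IKDC it was 41 with the offset of 50, 22 with the 60th percentile filter and 18 with the mean over probe sets. For LN against spleen NK it was 1 with the offset of 50, 1 without the minimum level and 3 with the 60th percentile filter. The offset of 50 called 1 gene in the NK to CDC interaction. The causes were not tested.

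Leaving out each spleen array in turn, the genes called ranged from 360 to 1399 for spleen IKDC and from 515 to 1916 for spleen NK against CDC, from 123 to 732 for LN IKDC and from 328 to 1078 for LN NK against LN CDC, from 0 to 33 for LN IKDC against LN NK, from 0 to 19 for LN against spleen CDC and from 0 to 12 for LN against spleen IKDC. Members called ranged from 6 to 8, 7 to 8, 1 to 5 and 2 to 5 in the first 4 of these comparisons.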
